A study of Mus musculus with 24 samples.

Results

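The mouse Schlafen genes Slfn1, Slfn2, Slfn3, Slfn4, Slfn5, Slfn8 and Slfn9 were described in bone marrow-derived macrophages (BMDMs) cultured with medium from lung cancer cells. The 7 genes were chosen by symbol from the 35770 gene names of the deposited table, and no measured value entered the choice. The table holds 24 RNA libraries, 3 in each of 8 groups, from C57BL/6 BMDMs grown from bone marrow with M-CSF. Macrophages received control media or conditioned medium (CM), named WT CM, KEAP1 KO CM or NRF2 KO CM after the cancer cells that made it, and in every medium they were given either vehicle or CDDO-Me, a synthetic oleanane triterpenoid, at 100 nM for 24 h. The cancer cells were LL2, a Lewis lung carcinoma line, which conditioned the medium for 48 h, and CM made up 75% of the culture medium. The study asked how the KEAP1 and NRF2 status of the cancer cells acts on macrophages and whether CDDO-Me changes that. The knockouts were made in the LL2 cells, so the macrophages of all 8 groups carried no knockout, and their own KEAP1 and NRF2 transcripts do not check the labels. The library names give a single line code for each knockout, so the knockout and other properties of that line cannot be told apart. RNA was harvested from 3 independent samples per group, without a statement of whether these came from separate mice, so p-values measure the spread between these samples.

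Schlafen proteins are named after the German word for sleeping, since the founding members were found to hold back the growth of thymocytes. Many Schlafen genes are induced by interferon and by bacterial products in myeloid cells, and the proteins share a core domain that in several members binds or cuts RNA, including transfer RNA. Mouse Schlafens are grouped by length. Slfn1 and Slfn2 are short forms that consist of little more than the core, Slfn3 and Slfn4 are intermediate forms, and Slfn5, Slfn8 and Slfn9 are long forms with a helicase-like part at the end. CDDO-Me activates the transcription factor NRF2 by binding its repressor KEAP1, and NRF2 in turn switches on antioxidant genes.

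Levels were given as TPM, the portion of a library's transcripts that a gene accounts for after correction for length, so that they can be compared between genes. The total is fixed by the unit, so the values do not show the read depth of each library. Genes above 1 TPM in at least 3 libraries, 13661 in all, were tested with limma on the log2 scale after adding 1 to the scaled TPM. A comparison was called at a Benjamini-Hochberg adjusted p under 0.05 over all tested genes. Of the 7 Schlafen genes, 6 passed the filter. Slfn4 stayed below 1 TPM in all 24 libraries and was not tested. Slfn1 passed only through the 6 libraries in which it was high, so its presence among the tested genes already depended on that difference. Its differences are therefore given as a description, without a p, and its place in each count of called members below supports nothing. The macrophage label was borne out by its markers, with all 7 markers on the list (among them Adgre1, Csf1r and Lyz2) at a mean above 1 TPM in every group and a summed level of 14888 to 38320.6 TPM. The replicate 3 libraries of NRF2 KO CM/vehicle and NRF2 KO CM/CDDO-Me stood apart from the rest: they listed 15702 and 16299 genes above 0, against 17817 to 18993 in the other 22 libraries, and the Schlafen results in NRF2 KO CM are given with and without them where the text draws a call from them.

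All 7 genes lie on mouse chromosome 11 within 267.0 kb, at chr11:82842100-83109101 of GRCm39 by the GENCODE annotation, in the order Slfn5, Slfn9, Slfn8, Slfn2, Slfn1, Slfn4 and Slfn3. Slfn8 and Slfn9 are on the minus strand and the others on the plus strand. Slfn10-ps lies between Slfn8 and Slfn2, and Slfn14 lies past Slfn3. The promoter windows below, 250 bases before to 50 bases after the RefSeq start, are shown because Slfn8 and Slfn9 are neighbours with closely related windows and different responses to CDDO-Me, Slfn5 rose as Slfn8 did, and Slfn1 had the steepest difference of the members. Capitals mark a pair of GAAA half-sites with 2 bases of any kind between them, read on either strand, which is the core of the interferon-stimulated response element (ISRE), and in Slfn5 also, closer to the start, the core of the antioxidant response element (ARE) bound by NRF2, searched as TGACNNNGC on either strand. The sequences are from RefSeq (GRCm38.p6), run 5′ to 3′ on the strand of the gene, and each matched a single place on chromosome 11 of GRCm39, which gave the coordinates.
Slfn8, chr11:82911587-82911886, minus strand: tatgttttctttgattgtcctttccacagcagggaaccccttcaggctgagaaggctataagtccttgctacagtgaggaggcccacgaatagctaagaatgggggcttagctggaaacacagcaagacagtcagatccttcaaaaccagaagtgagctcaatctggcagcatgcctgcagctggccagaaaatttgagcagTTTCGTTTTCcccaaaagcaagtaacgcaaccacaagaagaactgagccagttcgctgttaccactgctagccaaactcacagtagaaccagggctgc
Slfn9, chr11:82882607-82882906, minus strand: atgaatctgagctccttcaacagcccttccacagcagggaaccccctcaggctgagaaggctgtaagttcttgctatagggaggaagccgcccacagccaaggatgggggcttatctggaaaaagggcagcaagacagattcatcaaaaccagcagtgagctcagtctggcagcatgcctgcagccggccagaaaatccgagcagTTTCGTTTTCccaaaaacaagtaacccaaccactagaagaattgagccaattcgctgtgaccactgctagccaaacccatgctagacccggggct
Slfn5, chr11:82842678-82842977, plus strand: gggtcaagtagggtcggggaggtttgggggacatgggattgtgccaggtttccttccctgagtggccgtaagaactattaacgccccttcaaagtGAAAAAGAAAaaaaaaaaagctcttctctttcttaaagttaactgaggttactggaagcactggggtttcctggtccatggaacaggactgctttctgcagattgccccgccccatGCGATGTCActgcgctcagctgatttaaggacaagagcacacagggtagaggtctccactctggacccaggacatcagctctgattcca
Slfn1, chr11:83007396-83007695, plus strand: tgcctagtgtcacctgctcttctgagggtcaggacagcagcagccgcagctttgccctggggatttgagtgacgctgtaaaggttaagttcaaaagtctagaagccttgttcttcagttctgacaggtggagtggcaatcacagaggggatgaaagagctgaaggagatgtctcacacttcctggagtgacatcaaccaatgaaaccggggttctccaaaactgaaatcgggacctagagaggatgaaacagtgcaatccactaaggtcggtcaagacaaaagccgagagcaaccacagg

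The Slfn8 and Slfn9 windows were identical at 252 of 312 aligned columns (80.8%), while no other pair of members exceeded 53.0%. The ISRE core began 48 bases before the start in Slfn8, 45 in Slfn9 and 155 in Slfn5, and was found in the windows of these 3 of the 7 genes, the 3 long forms. It was present in 3.44% of all 32851 promoter windows of the table. The ARE core stood at 39 bases before the start in Slfn5 and at 119 in Slfn3, and was present in 12.4% of all windows. No window of a member held TTCNNNGAA, the core of the gamma-activated site, which 8.30% of all windows held, and the Slfn1, Slfn2 and Slfn4 windows held none of the 3 cores. These matches describe the letters of the windows, and binding was not measured.

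Slfn2, which is known from a mouse mutant to keep T cells and monocytes quiescent, was the most abundant Schlafen transcript in every library and made up 49.3% to 81.6% of the summed Schlafen TPM. Summed over the 7 genes, the level was 216 ± 20.1 TPM (SD, n = 3) in media/vehicle BMDMs and 140 ± 13.9 TPM in media/CDDO-Me BMDMs. It went from 227 ± 31.2 TPM with vehicle to 438 ± 62.4 TPM with CDDO-Me in WT CM and from 220 ± 20.4 to 442 ± 72.7 TPM in KEAP1 KO CM. It was 213 ± 30.1 TPM in NRF2 KO CM with vehicle and 148 ± 11.9 TPM with CDDO-Me. The sum with CDDO-Me was thus above that with vehicle in WT and KEAP1 KO CM, with no overlap of the libraries, and below it in media and NRF2 KO CM. In bulk RNA, a change in the share of a cell type and a change in RNA per cell cannot be told apart, and this holds for each result below.

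**Figure D1:**
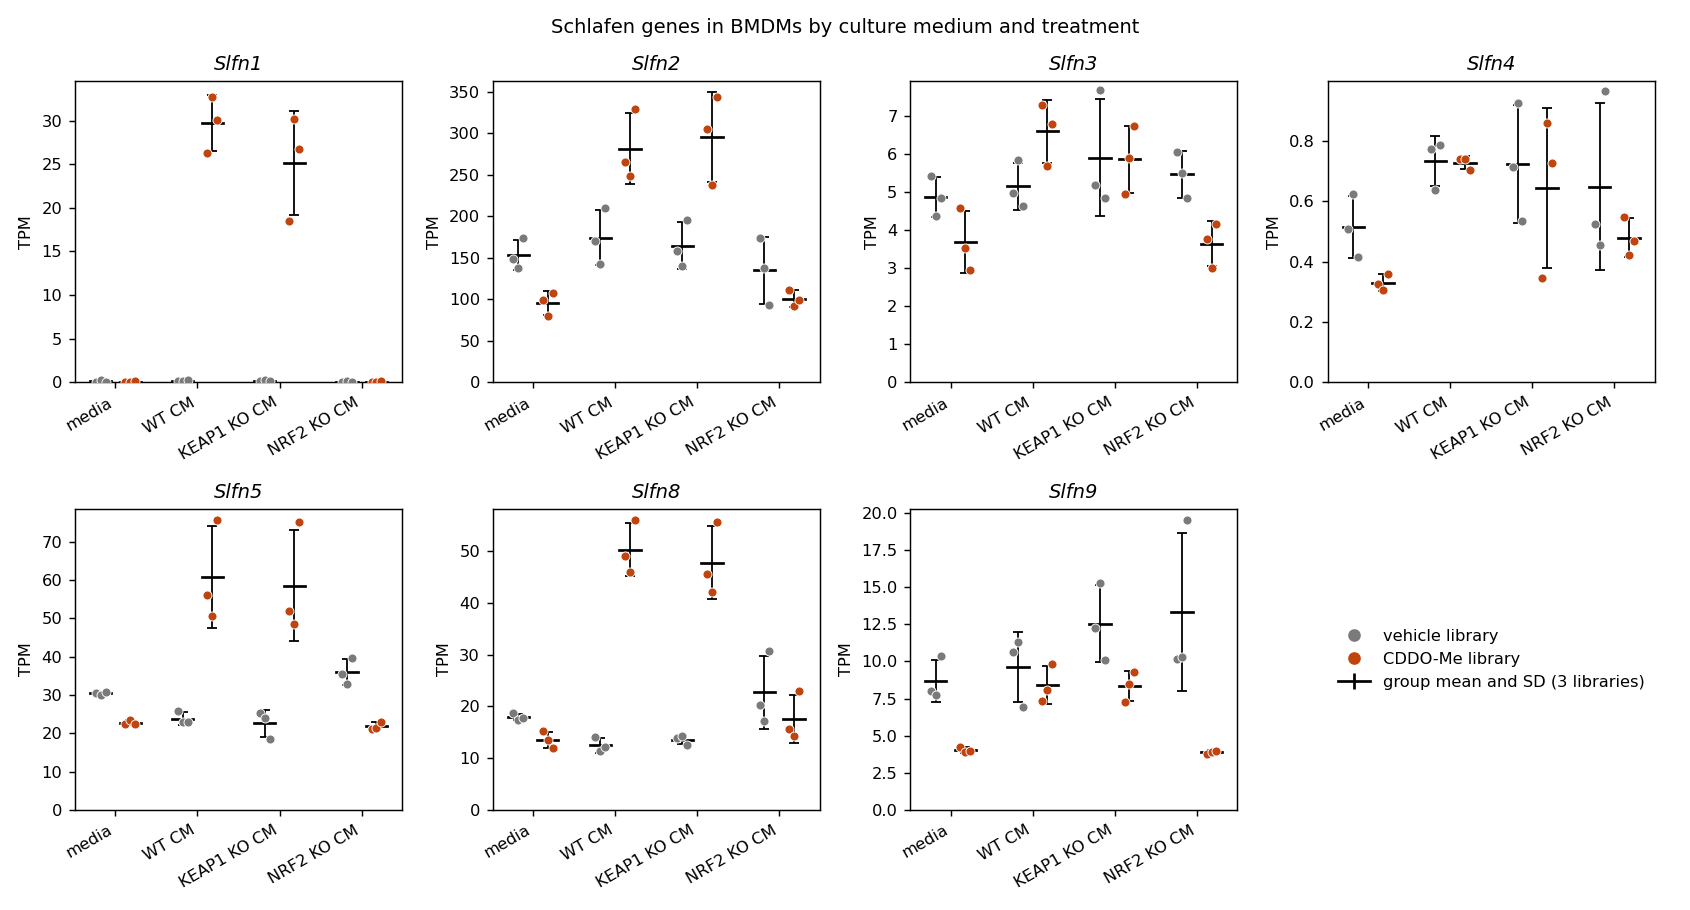
Level in TPM (linear axes from 0) of each Schlafen gene in the 24 libraries by medium, with vehicle in grey and CDDO-Me in orange and the mean and SD of 3 libraries in black. Slfn1, Slfn2, Slfn5 and Slfn8 were high in CDDO-Me libraries of WT CM and KEAP1 KO CM, while Slfn9 was low, at 3.74 to 4.27 TPM, in CDDO-Me libraries of media and NRF2 KO CM.

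CDDO-Me raised 4 of the 7 Schlafen genes in WT CM and the same 4 in KEAP1 KO CM: the short forms Slfn1 and Slfn2 and the long forms Slfn5 and Slfn8. None of the members was called lower in either medium, except that with library weights Slfn9 was called lower in KEAP1 KO CM (−0.45, limma adjusted p = 0.0045). For background, 27.9% of all tested genes were called in WT CM and 28.8% in KEAP1 KO CM, and 14.5% were called higher with CDDO-Me in each.

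Slfn1, first described as a gene that halts thymocyte growth, was nearly absent outside these 2 groups. It was 26.3, 32.7 and 30.03 TPM in WT CM/CDDO-Me BMDMs and 18.5, 30.2 and 26.7 TPM in KEAP1 KO CM/CDDO-Me BMDMs. In WT CM/vehicle BMDMs it was 0.113, 0.190 and 0.226 TPM, and in KEAP1 KO CM/vehicle BMDMs 0.161, 0.245 and 0.190 TPM. All 6 CDDO-Me libraries of these media therefore stood far above every other library, and none of the other 18 libraries exceeded 0.245 TPM. In media the level was 0, 0.216 and 0.0777 TPM with vehicle and 0.0188, 0.0409 and 0.176 TPM with CDDO-Me, and the groups overlapped. Levels in NRF2 KO CM were 0.0734, 0.121 and 0 TPM with vehicle and 0.0856, 0.0360 and 0.141 TPM with CDDO-Me, again with overlap. The log2 difference of CDDO-Me against vehicle was 4.83 ± 0.15 (SE) in WT CM and 4.53 ± 0.15 in KEAP1 KO CM. Since vehicle levels lie near 0, the size depends on the value added before the logarithm: with 0.1 TPM in place of 1 it was 6.90 in WT CM, and with 5 TPM it was 2.86. In media the difference was −0.02, with a 95% interval of −0.33 to 0.29, and in NRF2 KO CM it was 0.04, with an interval of −0.27 to 0.35. From 0 to 0.121% of the Schlafen sum in the other 6 groups, Slfn1 came to 4.26% to 8.34% in the 2 groups in which it was high.

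Slfn2 was 266, 248 and 330 TPM in WT CM/CDDO-Me BMDMs, all above the 170, 143 and 210 TPM of WT CM/vehicle BMDMs. Likewise in KEAP1 KO CM it was 306, 237 and 344 TPM with CDDO-Me and 158, 140 and 195 TPM with vehicle, without overlap. The log2 difference was 0.82 ± 0.22 (SE; limma adjusted p = 0.0080) in WT CM and 1.01 ± 0.22 (adjusted p = 0.0015) in KEAP1 KO CM. The call in WT CM was lost without the WT CM/vehicle replicate 2 library (0.68, adjusted p = 0.054) or without the WT CM/CDDO-Me replicate 3 library (0.69, adjusted p = 0.052). In media Slfn2 stood the other way: it was 148, 138 and 174 TPM with vehicle and 99.3, 79.6 and 108 TPM with CDDO-Me, and the groups did not overlap. This difference, −0.66 ± 0.22, did not pass the test (limma adjusted p = 0.097), and it passed with the replicate number as a block (adjusted p = 0.014) and without both NRF2 KO CM replicate 3 libraries, which enter the shared estimate of the spread (adjusted p = 0.041). Slfn2 was also called lower in media with only the compared groups fitted (limma adjusted p = 0.034) and with library weights (adjusted p = 0.0036). Its levels in NRF2 KO CM were 174, 137 and 93.2 TPM with vehicle and 112, 91.5 and 99.1 TPM with CDDO-Me, and these overlapped (−0.34, 95% interval −0.81 to 0.12). Without both replicate 3 libraries of this medium the difference was −0.58 (interval −1.12 to −0.04, adjusted p = 0.20). With library weights Slfn2 was called lower there (−0.56, limma adjusted p = 0.025).

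Slfn5, the long form whose human counterpart acts on interferon-responsive transcription, was 56.0, 50.7 and 75.8 TPM in WT CM/CDDO-Me BMDMs and 25.9, 22.8 and 22.8 TPM in WT CM/vehicle BMDMs. In KEAP1 KO CM it was 51.8, 48.7 and 75.2 TPM with CDDO-Me and 25.2, 23.9 and 18.6 TPM with vehicle. Every CDDO-Me library of these media lay above every vehicle library of the study, the highest of which was 39.7 TPM. The log2 difference was 1.43 ± 0.18 (SE; limma adjusted p = 2.8e-06) in WT CM and 1.49 ± 0.18 (adjusted p = 1.6e-06) in KEAP1 KO CM. In NRF2 KO CM Slfn5 fell, from 35.4, 33.0 and 39.7 TPM with vehicle to 21.0, 21.5 and 23.0 TPM with CDDO-Me (log2 difference −0.66 ± 0.18, adjusted p = 0.020). This call was lost without both replicate 3 libraries of NRF2 KO CM (−0.63, adjusted p = 0.062), without NRF2 KO CM/vehicle replicate 3 alone (−0.54, adjusted p = 0.073), without NRF2 KO CM/CDDO-Me replicate 1 (−0.63, adjusted p = 0.070) or replicate 2 (−0.61, adjusted p = 0.075), and with only the compared groups fitted (adjusted p = 0.23). In media Slfn5 was 30.5, 30.1 and 30.9 TPM with vehicle and 22.5, 23.5 and 22.4 TPM with CDDO-Me. These groups did not overlap, and the difference of −0.39 did not pass the test (95% interval −0.76 to −0.02, adjusted p = 0.28). Slfn5 was called lower in media with only the compared groups fitted (−0.39, limma adjusted p = 0.011) and with library weights (−0.40, adjusted p = 0.0076).

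Slfn8, a long form related to the human Schlafens that cut transfer RNA, had the second largest difference of the members on the log2 scale. It was 49.0, 46.0 and 56.0 TPM in WT CM/CDDO-Me BMDMs against 14.2, 11.3 and 12.1 TPM with vehicle. In KEAP1 KO CM it was 45.6, 42.1 and 55.7 TPM against 14.0, 14.3 and 12.5 TPM. The 6 CDDO-Me libraries lay above the other 18, whose highest value was 30.7 TPM in NRF2 KO CM/vehicle replicate 3. The log2 difference was 2.05 ± 0.21 (SE; limma adjusted p = 2.6e-07) in WT CM and 1.90 ± 0.21 (adjusted p = 7.7e-07) in KEAP1 KO CM. In media Slfn8 was 18.6, 17.5 and 17.7 TPM with vehicle and 15.2, 13.5 and 12.01 TPM with CDDO-Me, a difference of −0.37 that did not pass the test (95% interval −0.81 to 0.08). There Slfn8 was called lower with only the compared groups fitted (−0.37, limma adjusted p = 0.042) and with library weights (−0.29, adjusted p = 0.046). The levels in NRF2 KO CM were 20.3, 17.2 and 30.7 TPM with vehicle and 15.6, 14.3 and 23.0 TPM with CDDO-Me, which overlapped (−0.31, interval −0.75 to 0.14; −0.28, interval −0.61 to 0.05, without both replicate 3 libraries).

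Slfn9 was not called higher with CDDO-Me in any medium, although its promoter window is the closest to that of Slfn8. It fell in media, where 1 of the 7 members was called against 6.02% of all tested genes, and in NRF2 KO CM, where Slfn5 and Slfn9 were called against 9.61%. In media it was 8.03, 7.73 and 10.3 TPM with vehicle and 4.27, 3.90 and 3.99 TPM with CDDO-Me. In NRF2 KO CM it was 10.2, 10.3 and 19.5 TPM with vehicle and 3.74, 3.92 and 3.99 TPM with CDDO-Me. The 6 CDDO-Me libraries of these 2 media were the lowest of the 24 for Slfn9. The log2 difference was −0.91 ± 0.22 (SE; limma adjusted p = 0.016) in media and −1.46 ± 0.22 (adjusted p = 0.00018) in NRF2 KO CM. The call in media was lost without media/vehicle replicate 3 (−0.79, adjusted p = 0.091) or media/CDDO-Me replicate 2 (−0.87, adjusted p = 0.067). In NRF2 KO CM the difference was −1.18 (adjusted p = 0.00062) without both replicate 3 libraries, and it was not called when only these 2 groups were fitted (adjusted p = 0.12). In WT CM, by contrast, Slfn9 was 10.7, 11.3 and 6.94 TPM with vehicle and 7.33, 8.09 and 9.81 TPM with CDDO-Me, with overlap (−0.04, 95% interval −0.51 to 0.43). The KEAP1 KO CM libraries were at 12.2, 15.3 and 10.1 TPM with vehicle and 7.25, 8.50 and 9.30 TPM with CDDO-Me, without overlap and without passing the test (−0.37, interval −0.83 to 0.10).

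**Figure D2:**
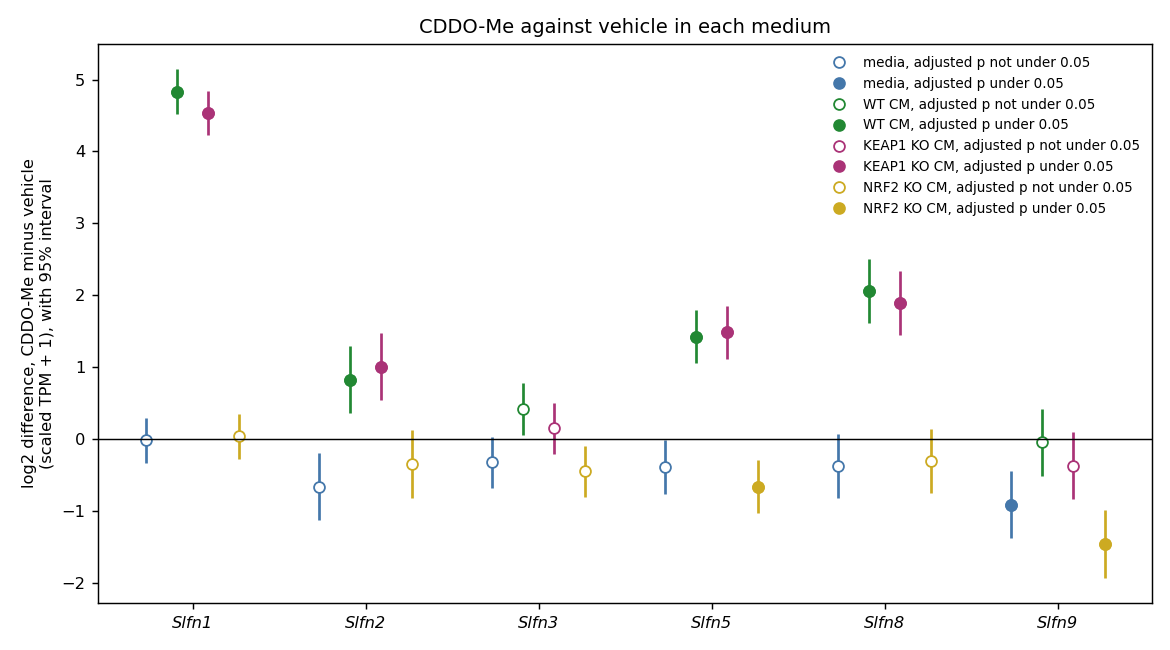
Log2 difference of CDDO-Me minus vehicle (scaled TPM + 1) with its 95% interval for the 6 tested members in the 4 media. Filled points passed an adjusted p of 0.05 and open points did not. Slfn1, Slfn2, Slfn5 and Slfn8 are filled above 0 in WT CM and KEAP1 KO CM, Slfn9 is filled below 0 in media and NRF2 KO CM, and Slfn5 is filled below 0 in NRF2 KO CM. Slfn1 passed the filter only through the groups in which it was high, so its filled points are a description.

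Slfn8 and Slfn9 could be set against each other within a library, since both are given per length. The ratio of Slfn8 to Slfn9 TPM ranged from 4.95 to 6.69 in the 6 CDDO-Me libraries of WT CM and KEAP1 KO CM. With vehicle it was 1.00 to 1.74 in WT CM, 0.934 to 1.24 in KEAP1 KO CM, 1.71 to 2.32 in media and 1.57 to 2.00 in NRF2 KO CM. With CDDO-Me in media and NRF2 KO CM it was 3.01 to 3.57 and 3.65 to 5.75. The ratio was therefore higher with CDDO-Me in all 4 media, without overlap. Slfn8 was called higher in WT CM and KEAP1 KO CM and Slfn9 lower in media and NRF2 KO CM, while in KEAP1 KO CM Slfn9 also lay lower without overlap and without passing the test.

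**Figure D3:**
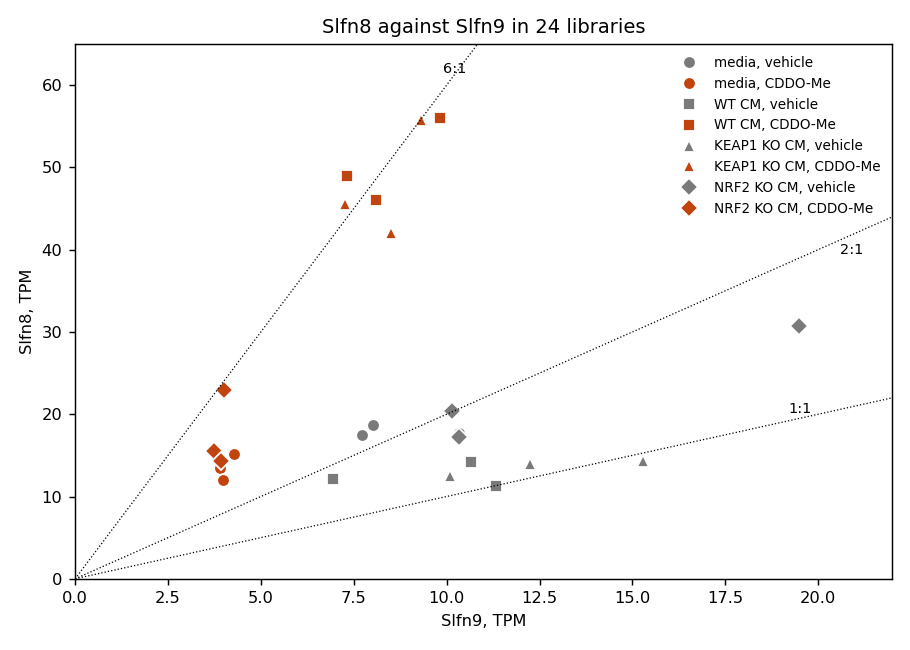
Slfn8 against Slfn9 in TPM (linear axes from 0) in the 24 libraries, with symbols for the medium, grey for vehicle and orange for CDDO-Me, and dotted lines for ratios of 1, 2 and 6. The CDDO-Me libraries of WT CM and KEAP1 KO CM lie at ratios of 4.95 to 6.69, and the vehicle libraries of these media at ratios of 0.934 to 1.74.

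Reads of related Schlafens can be split wrongly between them. Of the stretches of 31 bases in the Slfn8 transcripts, 19.0% also occurred in Slfn9 and 18.6% in Slfn10 (Slfn10-ps in the table), and 11.95% of those of Slfn9 occurred in Slfn8. Slfn3 and Slfn4 shared 521 such stretches, 7.89% and 11.7% of each. Slfn5, Slfn1 and Slfn2 shared the least with other genes of the table in this region, at 0.677%, 1.78% and 7.79%. The exons of Slfn5 and Slfn8 also overlap transcripts of the opposite strand, Slfn5os over 19.8% of the Slfn5 exon bases and Gm74281 over 24.9% of those of Slfn8. Whether counting used strand is not given in the sources used here, so reads of these partners cannot be told apart from those of Slfn5 and Slfn8.

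Of the intermediate forms, Slfn3 was not called with CDDO-Me within any medium, except in alternatives given below, and Slfn4 was not tested. Slfn3, studied mainly in the differentiation of gut epithelium, was 7.31, 5.69 and 6.81 TPM in WT CM/CDDO-Me BMDMs and 5.00, 5.85 and 4.63 TPM in WT CM/vehicle BMDMs, with overlap (log2 difference 0.42, 95% interval 0.06 to 0.77; limma adjusted p = 0.076). The difference was called without WT CM/CDDO-Me replicate 2 (0.53, adjusted p = 0.042) and without both NRF2 KO CM replicate 3 libraries (0.42, adjusted p = 0.043). It was also called with library weights (0.48, limma adjusted p = 0.0067). The KEAP1 KO CM libraries were at 4.96, 5.90 and 6.74 TPM with CDDO-Me and 5.20, 7.69 and 4.86 TPM with vehicle (0.15, interval −0.20 to 0.51). In media Slfn3 was 5.43, 4.38 and 4.85 TPM with vehicle and 4.59, 3.53 and 2.96 TPM with CDDO-Me, and the groups overlapped. The NRF2 KO CM libraries were at 6.07, 5.52 and 4.85 TPM with vehicle and 3.78, 3.01 and 4.16 TPM with CDDO-Me, without overlap and without passing the test (−0.45, interval −0.80 to −0.09; adjusted p = 0.11). Without both replicate 3 libraries of this medium it was −0.60 (adjusted p = 0.066). With library weights Slfn3 was called lower there (−0.56, limma adjusted p = 0.014). Slfn4, known for its induction in myeloid cells by infection, ranged from 0.304 TPM in media/CDDO-Me to 0.966 TPM in NRF2 KO CM/vehicle BMDMs. Its highest group mean was 0.733 ± 0.0838 TPM in WT CM/vehicle BMDMs and its lowest 0.330 ± 0.0277 TPM in media/CDDO-Me BMDMs.

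The difference between the CDDO-Me effects was tested directly as an interaction. Against the effect in media, the effect in WT CM was larger for Slfn1, Slfn2, Slfn3, Slfn5 and Slfn8, 5 of the 7 members, where 15.3% of all tested genes were called. The interaction was 4.85 ± 0.21 for Slfn1, 2.42 ± 0.30 for Slfn8, 1.81 ± 0.25 for Slfn5 and 1.48 ± 0.32 for Slfn2 on the log2 scale (limma adjusted p = 7.0e-06, 2.4e-05 and 0.0023 for the last 3). For Slfn3 it was 0.74 ± 0.24 (adjusted p = 0.043), and this call was lost in 12 of 35 alternatives, with adjusted p up to 0.11; those alternatives included leaving out media/vehicle replicate 1 or 3, WT CM/vehicle replicate 1 or 3, media/CDDO-Me replicate 2 or 3, WT CM/CDDO-Me replicate 1 or 3, KEAP1 KO CM/CDDO-Me replicate 2 or NRF2 KO CM/CDDO-Me replicate 1. For Slfn9 it was 0.87 ± 0.31 and did not pass (adjusted p = 0.073), but passed without NRF2 KO CM/vehicle replicate 3 (0.87, adjusted p = 0.010) and without both replicate 3 libraries of that medium (0.87, adjusted p = 0.0076). It also passed with only the compared groups fitted (0.87, limma adjusted p = 0.019) and with library weights (0.61, adjusted p = 0.0047). The same contrast for KEAP1 KO CM called 4 members, where 14.8% of all tested genes were called: Slfn1 at 4.55 ± 0.21, Slfn8 at 2.26 ± 0.30, Slfn5 at 1.87 ± 0.25 and Slfn2 at 1.67 ± 0.32 (adjusted p = 1.8e-05, 1.8e-05 and 0.00081 for the last 3). The CDDO-Me effect in NRF2 KO CM was not called different from that in media for any member, nor for any tested gene (0%; limma, 358 tested genes and 0 members at an unadjusted p under 0.05). The 95% intervals of that difference were −0.38 to 0.49 for Slfn1, −0.34 to 0.98 for Slfn2, −0.80 to 0.25 for Slfn5, −0.57 to 0.69 for Slfn8 and −1.21 to 0.11 for Slfn9. Without both NRF2 KO CM replicate 3 libraries no member was called either, and the intervals were −0.50 to 0.45, −0.62 to 0.78, −0.80 to 0.31, −0.34 to 0.51 and −0.81 to 0.26 in the same order.

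No Schlafen gene was called between KEAP1 KO CM and WT CM, with either treatment. Between the CDDO-Me groups of these media the libraries of all 7 members overlapped, and 0 members passed the test, against 0.0439% of all tested genes (limma, 560 tested genes and 0 members at an unadjusted p under 0.05). The log2 differences ran from −0.28 for Slfn1 (95% interval −0.59 to 0.02) to 0.04 for Slfn2 (−0.43 to 0.50). With vehicle, KEAP1 KO CM and WT CM also overlapped in all 7 members, with 0 members and 0% of all tested genes called (limma, 350 tested genes and 0 members at an unadjusted p under 0.05). With library weights 974 of all tested genes (7.13%) were called in this comparison, and no member. These differences ran from −0.15 for Slfn5 (interval −0.52 to 0.22) to 0.29 for Slfn9 (−0.17 to 0.76). How many of all genes overlapped between KEAP1 KO CM and WT CM was not counted, with either treatment. The interaction of CDDO-Me with KEAP1 KO CM against WT CM called 0 members and 0% of all tested genes (limma, 224 tested genes and 0 members at an unadjusted p under 0.05).

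With vehicle, no member was called between a conditioned medium and control media. Against media/vehicle BMDMs, 0 members were called in WT CM (7.23% of all tested genes), 0 in KEAP1 KO CM (8.06%) and 0 in NRF2 KO CM (0.00732%). With limma at an unadjusted p under 0.05 these counts were 0, 2 and 1 of the 7 members, and 2443, 2594 and 1649 of all tested genes. Slfn5 and Slfn8 lay lower in WT CM/vehicle than in media/vehicle BMDMs without overlap, at log2 differences of −0.28 (95% interval −0.65 to 0.09) and −0.43 (−0.87 to 0.02). In KEAP1 KO CM/vehicle BMDMs they also lay lower without overlap, at −0.43 (−0.80 to −0.06) and −0.37 (−0.82 to 0.07). How many of all genes lay apart in this way was not counted. With only the compared groups fitted, Slfn8 was called lower in WT CM (limma adjusted p = 0.033) and KEAP1 KO CM (0.021), and Slfn5 in KEAP1 KO CM (0.038). Without both NRF2 KO CM replicate 3 libraries, Slfn8 was called lower than in media in WT CM (adjusted p = 0.026) and in KEAP1 KO CM (−0.37, adjusted p = 0.046), and Slfn9 was called higher in KEAP1 KO CM (0.47, adjusted p = 0.045). Library weights gave these same calls. They also called Slfn5 lower in KEAP1 KO CM (−0.29, limma adjusted p = 0.027) and Slfn9 higher in WT CM (0.34, adjusted p = 0.029). Slfn8 was 17.2 to 30.7 TPM in NRF2 KO CM/vehicle BMDMs and 11.3 to 14.2 TPM in WT CM/vehicle BMDMs, and this was the only member called between these media (WT CM against NRF2 KO CM −0.71 ± 0.21, adjusted p = 0.036), where 10.6% of all tested genes were called, and 1.35% with only the compared groups fitted. The call was lost without WT CM/vehicle replicate 1 (adjusted p = 0.061), replicate 2 (0.12) or replicate 3 (0.098), without NRF2 KO CM/vehicle replicate 3 (−0.44, adjusted p = 0.19), with no filter on low values (0.064) and with only the compared groups fitted (0.33). Without both NRF2 KO CM replicate 3 libraries it was −0.44 (adjusted p = 0.045). Slfn5 missed the threshold in the same contrast (−0.51, adjusted p = 0.074) and passed it without NRF2 KO CM/vehicle replicate 2 (−0.61, adjusted p = 0.044) or KEAP1 KO CM/CDDO-Me replicate 3 (−0.51, adjusted p = 0.034). It also passed with the replicate number as a block (−0.51, limma adjusted p = 0.029).

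Set against naive media/vehicle BMDMs, as the study did for each group, WT CM/CDDO-Me BMDMs had 5 members called (26.8% of all tested genes) and KEAP1 KO CM/CDDO-Me BMDMs 4 (25.9%). These comparisons share the media/vehicle libraries with those above. The log2 differences in WT CM/CDDO-Me were 4.94 for Slfn1, 1.63 for Slfn8, 1.15 for Slfn5, 1.07 for Slfn2 and 0.54 for Slfn3 (adjusted p = 0.022), and those in KEAP1 KO CM/CDDO-Me were 4.66, 1.52, 1.06 and 1.10 for the first 4, with 0.36 for Slfn3 (adjusted p = 0.13). The call for Slfn3 was lost without scaling (adjusted p = 0.11) and without media/vehicle replicate 2 (0.093) or 3 (0.052) or WT CM/CDDO-Me replicate 1 (0.099) or 3 (0.073). In NRF2 KO CM/CDDO-Me BMDMs Slfn9 was the only member called, at −0.94 ± 0.22 (adjusted p = 0.0082), where 10.2% of all tested genes were called. Without media/vehicle replicate 3 it was −0.82 (adjusted p = 0.052), and without both NRF2 KO CM replicate 3 libraries −1.002 (adjusted p = 0.00081). With the replicate number as a block, Slfn2 was also called lower there (−0.57, adjusted p = 0.027).

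Ordered by group mean, the CDDO-Me groups of WT CM and KEAP1 KO CM were the 2 highest for Slfn1, Slfn2, Slfn5 and Slfn8. They overlapped each other and stood apart from the third group in all 4 genes. How many of all genes did so was not counted, so the order is a description. For Slfn1 the mean fell 126-fold from the second group, at 25.1 TPM, to the third, at 0.199 TPM, and the last 6 groups overlapped from neighbour to neighbour. For Slfn2 the step was from 281 to 174 TPM, for Slfn5 from 58.5 to 36.0 TPM and for Slfn8 from 47.8 to 22.8 TPM. Slfn9 had another order: NRF2 KO CM/vehicle was highest at 13.3 TPM, KEAP1 KO CM/vehicle followed at 12.5 TPM, and media/CDDO-Me at 4.05 and NRF2 KO CM/CDDO-Me at 3.89 TPM were last, apart from the 6 groups above them. The first place rested on NRF2 KO CM/vehicle replicate 3, at 19.5 TPM, since the other libraries of that group were at 10.2 and 10.3 TPM, below the mean of KEAP1 KO CM/vehicle. For Slfn3 neighbouring groups overlapped throughout, from 6.60 TPM in WT CM/CDDO-Me to 3.65 TPM in NRF2 KO CM/CDDO-Me BMDMs.

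Of the genes within 250 kb on either side of the members, 10 of 19 were tested, and in WT CM 2 were called higher with CDDO-Me, beside the 14.5% of all tested genes called higher there. These were Rffl, a ubiquitin ligase gene, at 0.68 on the log2 scale and Zfp830, a zinc finger gene, at 0.28. In KEAP1 KO CM Rffl was called, at 0.82, and in media and NRF2 KO CM 0 of the 10 were called by limma. Slfn10-ps, between Slfn8 and Slfn2, ranged from 1.70 to 8.23 TPM. Chosen after its values were seen, Slfn10-ps was called lower with CDDO-Me in media (−0.94, limma adjusted p = 0.020) and in NRF2 KO CM (−0.99, adjusted p = 0.010; −1.25, adjusted p = 0.00087, without both replicate 3 libraries). Its CDDO-Me effect exceeded that in media by 1.33 in WT CM (adjusted p = 0.0091) and 1.34 in KEAP1 KO CM (adjusted p = 0.0087). The pseudogene Gm11425, also between members, was called lower in media (−1.13, adjusted p = 0.018). Slfn14 and the Schlafen-like gene Slfnl1 were listed at 0 in 18 and 19 libraries and never exceeded 0.0436 and 0.0602 TPM.

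**Figure D4:**
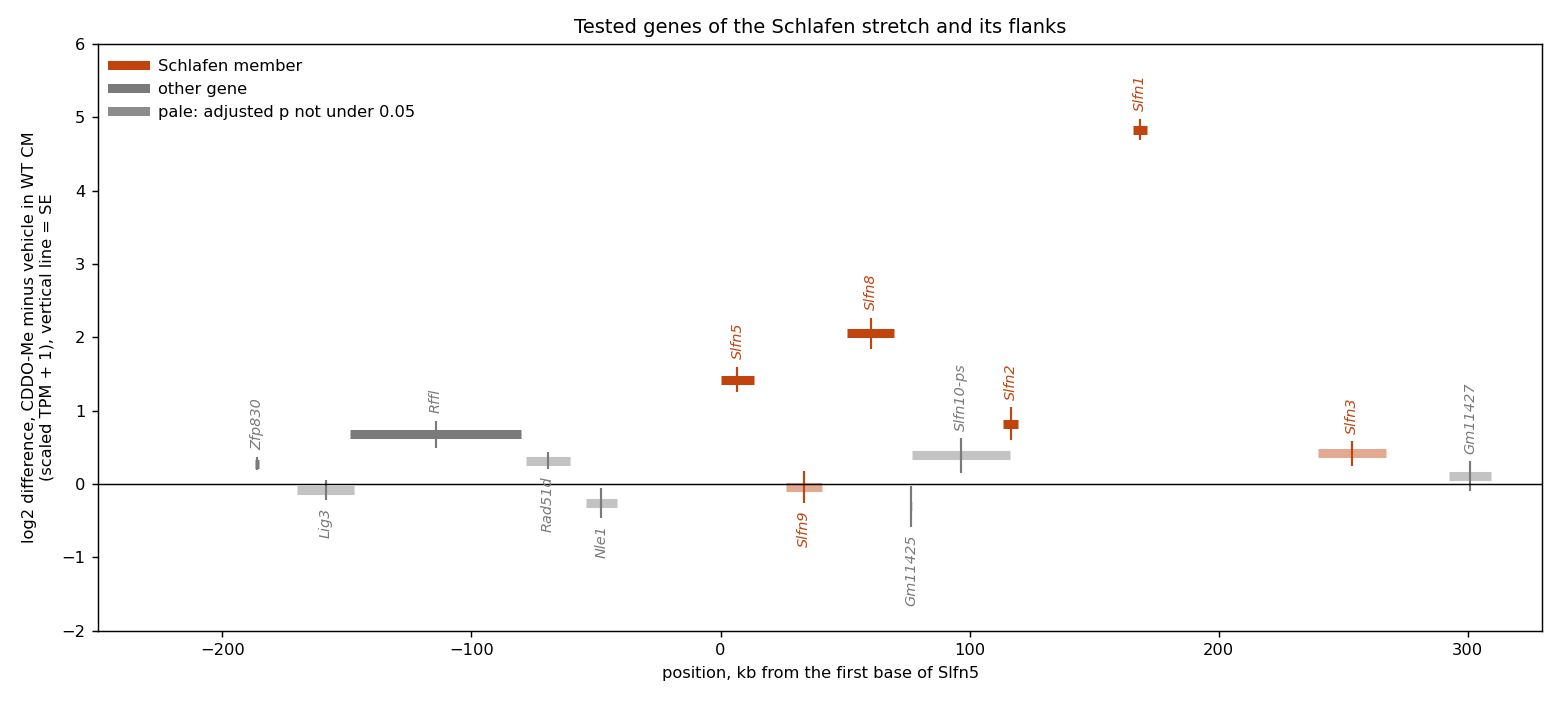
Log2 difference of CDDO-Me minus vehicle in WT CM (scaled TPM + 1; vertical lines are SE) for each tested gene from 250 kb before to 330 kb after the start of Slfn5, drawn from its first to its last base in kb from that start. Members are orange, other genes grey, and pale bars did not pass an adjusted p of 0.05. Slfn1 at 4.83, Slfn8 at 2.05 and Slfn5 at 1.43 stand above the rest, followed by Slfn2 at 0.82 and the flanking gene Rffl at 0.68. The bar of Slfn1 is a description, since it passed the filter only through the groups in which it was high.

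The genes whose log2 levels followed each member most closely over the 24 libraries were found by Pearson's r, as a description of these libraries, which share their groups. Slfn1 was followed by Tlr12, a Toll-like receptor gene, Sectm1a and Serpina3f, a serine protease inhibitor gene, at r = 0.998, 0.997 and 0.996. Tlr12, like Slfn1, was at most 0.195 TPM outside the 6 CDDO-Me libraries of WT CM and KEAP1 KO CM and 35.1 to 57.5 TPM within them. Slfn8 was followed by Ifit1, an interferon-induced antiviral gene, Peli1 and Mndal (r = 0.982, 0.980 and 0.977), and Slfn5 by Rtp4, Ifi203 and Il12rb2 (0.970, 0.967 and 0.967). For Slfn2 these were Slc31a2, a copper transporter gene, Sumf1 and Cdc42se2 (0.968, 0.948 and 0.945), and for Slfn3, at lower values, Paqr4, Ifi27l2a and Dennd1a (0.854, 0.849 and 0.842). Slfn9 was followed by Tmpo, a nuclear lamina gene, Brip1, a DNA repair helicase gene, and Gmnn, which encodes the replication licensing inhibitor geminin (0.921, 0.893 and 0.880). Among the members, r was highest between Slfn5 and Slfn8 (0.958) and lowest between Slfn1 and Slfn9 (0.189).

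Genes of the pathways named with the Schlafens were counted from lists. Of 24 type I interferon genes, 21 were called higher and 0 lower with CDDO-Me in WT CM and in KEAP1 KO CM, with median log2 differences of 2.06 and 1.87, beside −0.01 and −0.02 over all tested genes. The largest in WT CM were Ifit2 at 5.38 and Ifit3 at 5.12, and the smallest called were Oas1a at 0.58 and Rigi at 0.67. In media 0 of the 24 were called by limma, with a median of −0.23, and in NRF2 KO CM 3 were called lower, Rsad2 at −0.72, Ifi44 at −0.88 and Ifit3 at −1.04. None of these 3 was called without both NRF2 KO CM replicate 3 libraries (limma adjusted p = 0.073, 0.13 and 0.18), where Isg15 at −0.72 and Oas1a at −0.48 were called lower instead. Of 13 interferon gamma genes, 11 were called higher and 0 lower in each of WT CM and KEAP1 KO CM, with medians of 4.95 and 5.02 and with the chemokine gene Cxcl9 at 10.48 and 10.21. In media and in NRF2 KO CM 0 of these 13 were called by limma, with medians of −0.08 and 0.06, while without those 2 libraries Irgm1 was called lower (−0.50) and Jak2 higher (0.38) in NRF2 KO CM. The 8 NRF2 target genes had another pattern: 8 were called higher with CDDO-Me in media, KEAP1 KO CM and NRF2 KO CM and 7 in WT CM, with medians of 2.38, 2.36, 2.80 and 1.72. Nqo1, an antioxidant enzyme gene, was at 4.86 in media, 3.69 in WT CM, 4.44 in KEAP1 KO CM and 5.37 in NRF2 KO CM.

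Markers of other cell types also differed between the groups in which the Schlafens did. The 4 conventional dendritic cell markers summed to 100 to 127 TPM in WT CM/CDDO-Me and 46.8 to 86.0 TPM in KEAP1 KO CM/CDDO-Me BMDMs, and to at most 1.82 TPM in the other 6 groups. Clec9a, at up to 123 TPM, gave nearly all of this sum, while Xcr1 reached 4.69 TPM and was above 1 TPM in 6 libraries. The log2 difference of Xcr1 with CDDO-Me was 2.33 in WT CM and 1.60 in KEAP1 KO CM. Like Slfn1, Xcr1 may have passed the filter only through groups in which it was high, so these values are a description. Zbtb46 reached 1.36 TPM, and Flt3 did not exceed 0.239 TPM in any library. The 4 NK cell markers summed to 44.9 to 103 and 21.6 to 76.6 TPM in those 2 groups and to at most 1.52 TPM elsewhere, almost wholly through Klrk1, while Gzma was at 0 and Ncr1 at most 0.218 TPM in all libraries. The 3 plasmacytoid dendritic cell markers summed to 579 to 803 TPM in those 2 groups and 51.1 to 425 TPM in the others, almost wholly through Bst2, with Siglech at most 0.513 TPM. The 8 fibroblast markers summed to 167 to 782 TPM in those 2 groups and 261 to 2029.5 TPM in the others. Neutrophil markers, 6 in all, summed to 33.2 to 73.7 TPM in those 2 groups and 10.7 to 64.9 TPM in the others, with Ly6g at most 0.989 TPM. The 7 T cell markers summed to 4.62 to 6.06 TPM in those 2 groups and 5.50 to 17.4 TPM in the others, and the sums of the 4 B cell and 3 erythroid markers did not exceed 2.65 and 0.752 TPM in any library. The part of these cells in the Schlafen differences was not tested.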

How the data were processed

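Poly-A RNA libraries of 24 BMDM samples were quantified by the authors with kallisto on GRCm39 transcripts, and per the labels' processing notes no version is given. The deposited values are TPM summed to 35770 gene names, in a table named as counts. A line without a gene name (0.0199% to 0.0635% of each library) was left out. The depth of each library is not given in the sources used here, so no interval for counting error is given, and no count model was used. Libraries were scaled by unweighted TMM factors (trims of 30% on M and 5% on A, factors 0.884 to 1.11), and log2(TPM + 1) was fitted with limma 3.58.1 in R 4.3.3 over all 8 groups (16 residual degrees of freedom, eBayes with trend, two-sided). The fit was tested on simulated data. Samples were grouped by their treatment labels. The members, lists and tests were chosen with earlier results of these data known. All members are named, with 3 most alike genes each, the flanking genes called, and from each pathway list up to 4 called genes, taken from the 2 largest and 2 smallest changes. Same-numbered samples of 2 groups correlated in their deviations above 0.1 in every pair in 7 of 13 comparisons of groups. Over all groups 71 of 84 same-numbered pairs exceeded 0.1, with a mean of 0.256 against −0.121 for other pairs. Deviations from a group mean sum to 0, so the 2 means are tied and the second is not a separate reference. Of the 24 libraries, 22 matched best with their own number. The labels do not say what a number stands for, so blocked values are printed where they change a call. Alternatives varied the pseudocount (0.1 or 5 TPM), filter, scaling, trend, library weights, block and libraries. Promoter windows came from RefSeq, and transcripts and exons from GENCODE on GRCm39. Protein sequences were not used here. Figures were drawn with matplotlib 3.10.9. A flanking gene is not reported here.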

Additional observations from a re-analysis of the deposited data

Results flagged for a closer look

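By the interaction test of limma, the response to CDDO-Me differed from that in media for 5 Schlafen genes in WT CM. In KEAP1 KO CM it did so for 4. The same test called 15.3% of all tested genes in WT CM and 14.8% in KEAP1 KO CM. In WT CM the CDDO-Me effect exceeded that in media by 4.85 for Slfn1, 2.42 for Slfn8, 1.81 for Slfn5, 1.48 for Slfn2 and 0.74 for Slfn3 on the log2 scale. In KEAP1 KO CM it exceeded that in media by 4.55 for Slfn1, 2.26 for Slfn8, 1.87 for Slfn5 and 1.67 for Slfn2. Slfn1 entered the test only through the groups in which it was high, so its values are a description. Its place in the counts of 5 and 4 supports nothing. Slfn2, Slfn5 and Slfn8 kept these calls under all 35 alternatives in both media, and Slfn3 did not.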

How the results depend on the processing

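Of 31 combinations of a member and a comparison that were called, 23 were called under all 35 alternatives, and none changed sign. Both counts include the combinations of Slfn1, which support nothing since Slfn1 passed the filter only through the groups in which it was high. Many combinations also share libraries, so they are not separate results. The count of called members changed as follows. With library weights it was 2, 3, 2, 4, 4 and 3 for WT CM and KEAP1 KO CM against media, WT CM against NRF2 KO CM (all vehicle), CDDO-Me in media, CDDO-Me in NRF2 KO CM and NRF2 KO CM/CDDO-Me against media/vehicle, 5 for CDDO-Me in WT CM and in KEAP1 KO CM, and 6 for the interaction of WT CM with media. In the same order, the share of all tested genes called with library weights was 30.1%, 36.7%, 24.9%, 25.8%, 20.4%, 26.9%, 52.1%, 51.3% and 39.6%. Without both NRF2 KO CM replicate 3 libraries it was 1 and 2 for WT CM and KEAP1 KO CM against media, 2 for CDDO-Me in media, 1 for CDDO-Me in NRF2 KO CM, 5 for CDDO-Me in WT CM and 6 for the interaction of WT CM with media. The shares of all tested genes were then 18.8%, 21.0% and 14.9%, 1295 of 13562 genes for CDDO-Me in NRF2 KO CM, and 43.1% and 28.3%. With only the compared groups fitted it was 1, 2, 0, 4 and 0 for WT CM and KEAP1 KO CM against media, WT CM against NRF2 KO CM, CDDO-Me in media and CDDO-Me in NRF2 KO CM. For WT CM against NRF2 KO CM it was 0 without a filter, where 1254 of 24791 genes were called, and 2 without scaling, where 1379 of 13661 were called. For the interaction of WT CM with media it was 4 without a filter (1952 of 24791 genes) and 4 without scaling (2154 of 13661). For WT CM/CDDO-Me against media/vehicle it was 4 without scaling (4232 of 13661). With the replicate block it was 2 for WT CM against NRF2 KO CM, for CDDO-Me in media and for NRF2 KO CM/CDDO-Me against media/vehicle, and no other call was lost or gained under the block. In these comparisons 18.7%, 10.7% and 16.0% of all tested genes were called with the block. For WT CM against NRF2 KO CM the block added Slfn5 (limma adjusted p = 0.029). There the deviations of same-numbered samples correlated at 0.082 to 0.227, and those of other pairs at −0.201 to 0.0031. Leaving out each library in turn gave 0 to 2 called members for WT CM against NRF2 KO CM, 0 to 1 for CDDO-Me in media, 1 to 2 for CDDO-Me in NRF2 KO CM, 0 to 1 for NRF2 KO CM/CDDO-Me against media/vehicle, 3 to 5 for CDDO-Me in WT CM, and 4 to 5 for WT CM/CDDO-Me against media/vehicle. The interaction of WT CM with media ranged from 4 to 6. Without media/vehicle replicate 3, 604, 1008 and 1821 of 13633 genes were called for CDDO-Me in media, NRF2 KO CM/CDDO-Me against media/vehicle and that interaction. Without WT CM/vehicle replicate 3, 811 of 13637 were called for WT CM against NRF2 KO CM. Without WT CM/vehicle replicate 2, 3187 of 13634 were called for CDDO-Me in WT CM. Counts over all genes are not printed for the other fits. Leaving out a library of a group of 3 leaves 2, whose spread is shared with the other groups in the fit.

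The count over all tested genes moved by more than 1.5 times in many alternatives. For WT CM against media with vehicle it was 988, and 4114 with library weights, 1743 with the replicate block, 2554 without both NRF2 KO CM replicate 3 libraries and 2069 with only the compared groups. For WT CM against NRF2 KO CM it was 1449, and 3396 with library weights, 2550 with the block and 168 with only the compared groups. For CDDO-Me in WT CM it was 3812, and 7122 with library weights and 5839 without those 2 libraries. For CDDO-Me in media it was 822, and 3521, 1464, 2025 and 1629 under the same 4 alternatives. For CDDO-Me in NRF2 KO CM it was 1313, and 2782 with library weights, 1986 with the block and 139 with only the compared groups. The library weights gave both NRF2 KO CM replicate 3 libraries weights of 0.0368 and 0.0768, against 0.388 to 5.95 for the others. Levels under 1 TPM, such as those of Slfn4, are limited by a depth that TPM do not show.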
